A study of Homo sapiens with 13 samples.

Results

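The regions described here are the 1343 H3K4me3 peaks of H1 cells that carried H3K27ac and H3K27me3 as well. They were chosen by overlap alone: a WT H3K4me3 peak was a member when it overlapped at least 1 bp of a WT H3K27ac peak and at least 1 bp of a WT H3K27me3 peak. They made up 1343 of the 28660 WT H3K4me3 peaks, beside 10860 with H3K27ac and no H3K27me3, 8240 with H3K27me3 and no H3K27ac, and 8217 with neither. H1 (WA01) is an established human embryonic stem cell line. The WT group was H1 of wild-type genotype, and the KO group was the homozygous ZNF263 knockout clone 1-10, made with Cas9, so the knockout is represented by 1 clone. A further list came from a FLAG ChIP in the same KO clone expressing ZNF263-FLAG ectopically, at a level not given in the sources used here. No treatment, time or promoter for the transgene is given for any of these groups.

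H3K4me3 marks the nucleosomes around transcription start sites. Acetylation of H3K27 is laid down at active promoters and enhancers, and trimethylation of the same residue by Polycomb repressive complex 2 marks silenced developmental genes. In embryonic stem cells H3K4me3 and H3K27me3 are well known to occur together at bivalent promoters of such genes. One H3 tail cannot be acetylated and trimethylated on lysine 27 at the same time. Where both marks are present at the same bases, they thus lie on different tails, nucleosomes, alleles or cells. Peak lists from pooled cells cannot tell these apart, and a listed base need not itself carry the mark.

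The series held 13 samples in 12 groups, and the 6 histone peak lists and the FLAG list were used. Each genotype had 1 library per mark, so genotypes were set side by side without a test and without a replicate check. The lists give no read counts, and the depth of each library is unknown. Absence from a list means that no peak passed the authors' caller, not that the mark was gone. Shares are given with Wilson 95% intervals and differences of shares with Newcombe 95% intervals, both covering the counting of peaks only. The H3K27ac lists held 17537 peaks in WT and 17571 in KO, and the H3K27me3 lists held 11906 in WT and 10375 in KO. Coordinates are hg19, counted from 1. Genes, promoters and sequence under the regions were not analysed here.

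The first question was how the 2 marks of H3K27 were arranged under the H3K4me3 peak. Since the same WT lists chose the regions, the arrangement is a description. In 1239 of the 1343 regions (92.3%, 90.7 to 93.6) H3K27ac and H3K27me3 peaks shared bases, and in 104 (7.74%, 6.43 to 9.30) they lay side by side. Partial overlap was the usual form, with 1055 regions (78.6%). H3K27ac lay wholly inside the H3K27me3 part of the peak in 154 regions (11.5%), H3K27me3 wholly inside the H3K27ac part in 29 (2.16%), and both covered exactly the same bases in 1. Overlapping and lying at different ends were not alternatives. In 994 regions (74.0%, 71.6 to 76.3) 1 mark reached farther on one side and the other mark on the other side, and 893 of the 1055 partial overlaps (84.6%) were of this staggered kind. H3K27me3 reached farther on both sides in 291 regions (21.7%), H3K27ac did so in 19, and the marks shared an edge in 39.

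Among the 1239 regions with shared bases, the shared stretch had a median of 891 bp (quartiles 556 and 1297.5, largest 3442), or 60.2% of the shorter mark and 22.5% of the H3K4me3 peak. It was shorter than 200 bp in 73 regions. Some of the overlap follows from lengths: in 716 regions the bases under the marks summed to more than the H3K4me3 peak, so that they had to meet. Of the 627 regions in which both marks could have been placed side by side, 523 (83.4%, 80.3 to 86.1) shared bases. In the 104 side-by-side regions the gap had a median of 325 bp (quartiles 109.5 and 839). It was at most 200 bp in 43 of them and more than 1000 bp in 23. Among the 1132 regions with a single peak of each mark, 1039 (91.8%) had shared bases, so the arrangement was not confined to regions with several peaks.

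The profile of the marks along the regions shows this stagger. Each region was scaled to its own length and turned so that the mean position of H3K27ac lay to the left of that of H3K27me3, which by itself separates the curves. WT H3K27ac covered at most 85.9% of the regions, at 43.75% of the length and thus near the centre. WT H3K27me3 covered at most 86.7%, at 86.25% of the length and thus near one end. Both marks together covered at most 42.2% of the regions, at 63.75% of the length. In the KO lists the same regions reached at most 53.5%, 59.9% and 15.5%.

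**Figure D1:**
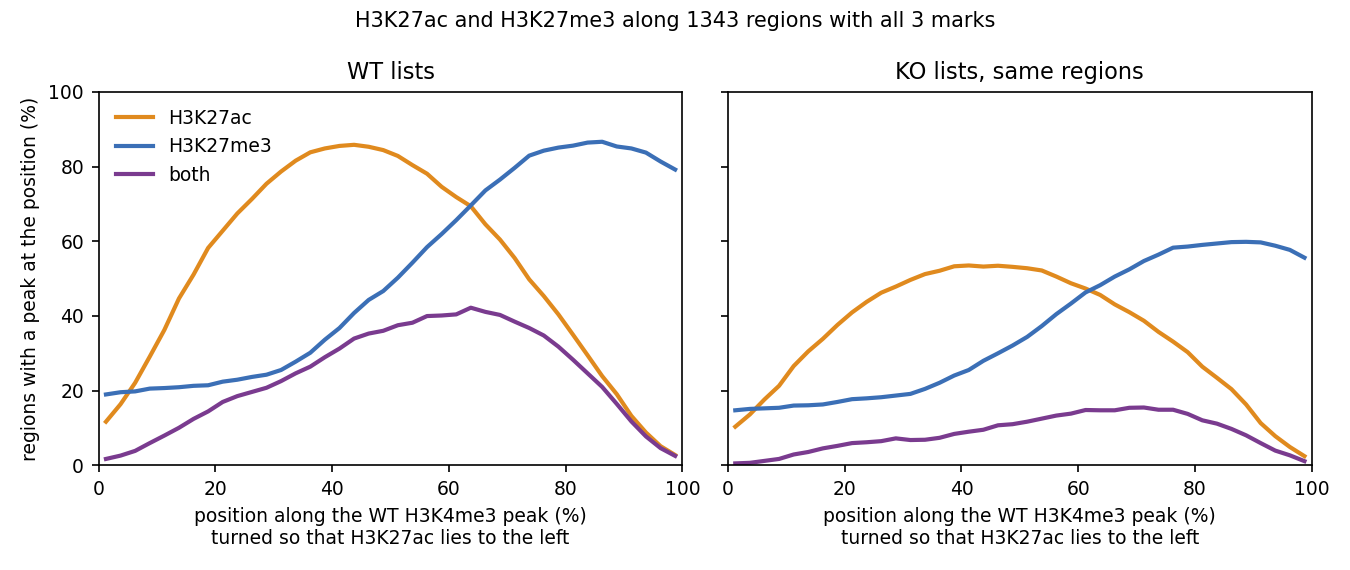
Share of the 1343 regions (vertical axis, %) with an H3K27ac peak, an H3K27me3 peak or both at each position along the WT H3K4me3 peak (horizontal axis, % of its length, 40 bins), in the WT lists on the left and the KO lists on the right. Regions were turned so that H3K27ac lies to the left. H3K27ac peaks near the centre and H3K27me3 near one end, and the curve for both falls from at most 42.2% in WT to 15.5% in KO. The regions were chosen for both marks in WT.

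The regions were broad H3K4me3 peaks, and most of them lay across 1 end of an H3K27me3 peak. Their median width was 3821 bp (quartiles 3036 and 4959), beside 3090 bp for peaks with H3K27ac alone, 2500.5 bp with H3K27me3 alone and 1711 bp with neither. The H3K27me3 peak ran past exactly 1 edge of the H3K4me3 peak in 913 regions (68.0%), past both in 189 (14.1%) and past none in 241 (17.9%). In H3K4me3 peaks with H3K27me3 alone the order was the reverse, with 28.4% past 1 edge and 68.2% past both. H3K27ac lay within the H3K4me3 peak in 1189 regions (88.5%), beside 54.3% of peaks with H3K27ac alone. Whole peaks of both marks were shorter in the regions, taking the widest peak of each. The median was 2518 bp for H3K27me3, beside 4400.5 bp with H3K27me3 alone. For H3K27ac it was 1967 bp, beside 2294 bp with H3K27ac alone. Reach past the edges was not compared within classes of these lengths. Within the regions H3K27ac covered a median of 1951 bp and H3K27me3 a median of 1786 bp.

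Both marks had lower scores in these regions than where either occurred without the other. Scores are those that the authors' peak caller gave, and each is compared only within its own list. The median WT H3K27ac score was 107 in the regions and 181 in H3K4me3 peaks with H3K27ac alone. The median WT H3K27me3 score was 172 in the regions and 1094 in peaks with H3K27me3 alone. The H3K4me3 score was at the list's commonest high value of 3100 or above in 85.4% of the regions, beside 56.9% of peaks with H3K27ac alone and 41.4% with H3K27me3 alone. The regions were spread over the genome: on the 22 autosomes they made up from 3.41% (chromosome 22) to 7.19% (chromosome 21) of the H3K4me3 peaks. They were also nearly all served by separate peaks, since 3 H3K27ac peaks and 9 H3K27me3 peaks each reached 2 regions.

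The smallest overlaps show how little the rule can require. At chr14:104007994-104010169 the H3K27me3 peak entered the H3K4me3 peak by 17 bp, and at chr18:5892731-5897727 by 20 bp. Just outside the rule, the H3K27me3 peak nearest to the H3K4me3 peak at chr5:120034415-120041247 lay 4 bp away, and the nearest H3K27ac peak to that at chr21:38118791-38121458 lay 23 bp away. In all, 12 H3K4me3 peaks missed the rule by an H3K27me3 peak within 100 bp and 2 by an H3K27ac peak within 100 bp.

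The second question was which mark was absent from the KO lists, which the rule did not use. H3K4me3 stayed listed: 1338 of the 1343 regions overlapped a KO H3K4me3 peak and 5 (0.372%, 0.159 to 0.869) did not, while 12.3% of all WT H3K4me3 peaks had no KO peak. That share was 8.69% in peaks with H3K27ac alone and 5.34% in peaks with H3K27me3 alone. The regions more often had a high H3K4me3 score than these, and no comparison within classes of that score was made. H3K27ac was absent from 492 regions (36.6%, 34.1 to 39.2), where the background over all WT H3K4me3 peaks with H3K27ac was 17.6%. H3K27me3 was absent from 425 regions (31.6%, 29.2 to 34.2), where the background over all WT H3K4me3 peaks with H3K27me3 was 14.1%. The share without H3K27ac was 21.4 points (18.7 to 24.1) higher than in peaks with H3K27ac alone. The share without H3K27me3 was 20.4 points (17.9 to 23.03) higher than in peaks with H3K27me3 alone.

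Both marks remained listed in 568 regions (42.3%, 39.7 to 45.0). H3K27me3 without H3K27ac was the next most frequent outcome, in 350 regions (26.1%, 23.8 to 28.5), followed by H3K27ac without H3K27me3 in 283 (21.1%, 19.0 to 23.3). Neither mark was listed in 142 regions (10.6%, 9.04 to 12.3). The balance between the single marks depended on list length. When WT and KO lists of each mark were cut to equal numbers by score, 29.8% of the regions had H3K27me3 only and 15.6% had H3K27ac only. A KO peak of the absent mark was seldom nearby. The nearest KO H3K27ac peak lay a median of 45.2 kb away from the 492 regions without one, and within 1 kb in 9 of them. For H3K27me3 the median distance was 92.7 kb, again with 9 of 425 regions within 1 kb.

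A region required to have a mark in WT can only keep or lack it in KO, so the comparison was also run from the other side. The KO lists held 770 H3K4me3 peaks with all 3 marks, fewer than the 1343 in WT. In the WT lists 567 of these (73.6%, 70.4 to 76.6) had both marks, beside 42.3% in the forward direction. The forward count with both marks was 568, so the gap between these shares mostly follows from the totals, 1343 and 770. H3K27ac was absent in WT from 132 (17.1%) and H3K27me3 from 83 (10.8%). The forward shares were higher by 19.5 points for H3K27ac and by 20.9 points for H3K27me3. Many regions are in both sets, so no interval is given for these differences. The marks shared bases in 692 of the 770 KO regions (89.9%), with a median shared stretch of 794 bp. H3K27ac lay inside H3K27me3 in 51 of them (6.62%, 5.07 to 8.60), beside 11.5% (9.87 to 13.3) of the WT regions. H3K27me3 reached farther on both sides in 125 (16.2%, 13.8 to 19.0), beside 21.7% (19.5 to 24.0) in WT. With lists of equal length, 1162 WT and 768 KO peaks had all 3 marks.

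The score of the WT peak went with its fate in KO. In the lowest of 4 classes of the WT H3K27ac score, 69.0% of the regions had no KO H3K27ac peak, beside 49.9% of the peaks with H3K27ac alone in that class. In the second class the shares were 49.4% and 26.5%, and in the next 16.2% and 8.16%. In the highest class 1 of 254 regions had no KO peak. The excess over peaks with H3K27ac alone was thus 19.1 points (13.5 to 24.4), 22.9 points (17.7 to 28.1) and 8.07 points (4.41 to 12.4) in the lower classes, and its interval included 0 in the highest. For H3K27me3 the corresponding shares were 73.8% against 63.2%, 30.2% against 21.6%, 2.40% against 2.15% and 2.29% against 0.438%. The excess of H3K27me3 absence was 10.6 points (4.92 to 15.9) in the lowest class and 8.54 points (3.99 to 13.3) in the next. In the third class it was 0.249 points with an interval that included 0 (-1.11 to 2.57), and in the highest 1.85 points (0.429 to 5.30). Weighted over the classes by the regions in each, the excess was 13.8 points for H3K27ac and 6.17 points for H3K27me3, smaller than without the classes.

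**Figure D2:**
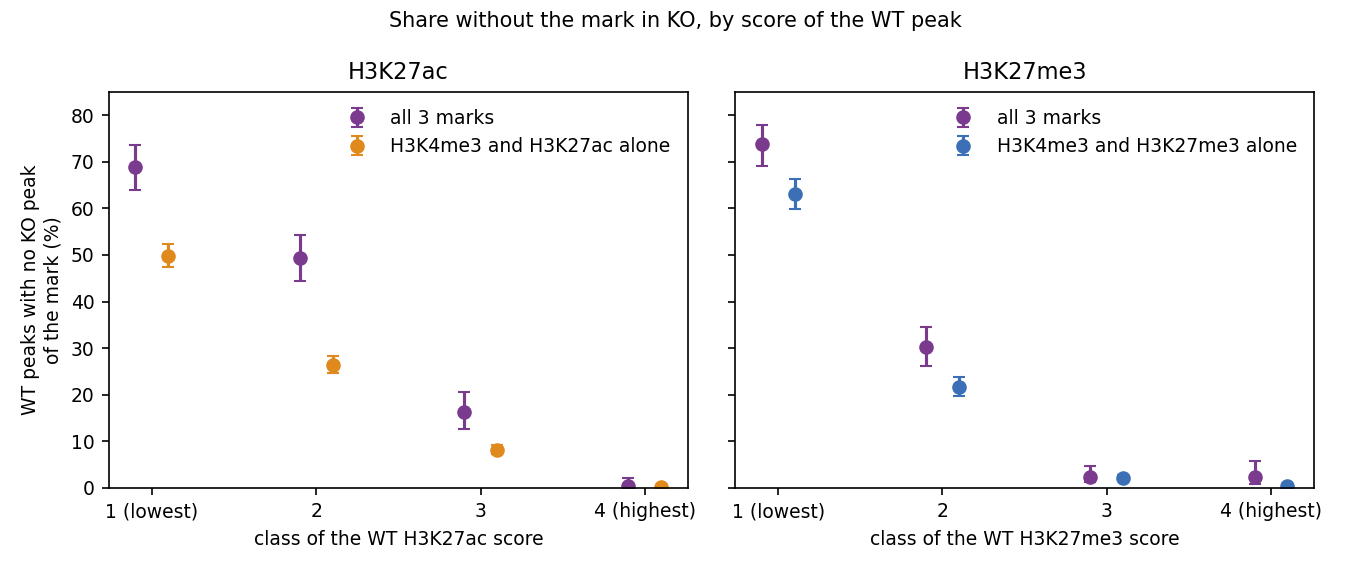
Share of WT H3K4me3 peaks without the mark in KO (vertical axis, %) by class of the WT score of that mark (horizontal axis, 4 classes cut at the quartiles of the whole WT list), for H3K27ac on the left and H3K27me3 on the right. Points are shares and bars are Wilson 95% intervals. The regions with all 3 marks lie above the peaks with H3K27ac alone in the 3 lower classes, from 69.0% against 49.9% in the lowest.

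The outcomes were also counted by the scores of both marks together. With each list divided at its median score, 297 regions had a lower H3K27ac and an upper H3K27me3 score. Of these, 61.3% (55.6 to 66.6) had H3K27me3 only in KO, 36.7% had both marks and 1.01% had H3K27ac only. In the 387 regions with an upper H3K27ac and a lower H3K27me3 score, 47.0% (42.1 to 52.0) had both marks, 44.7% (39.8 to 49.7) had H3K27ac only and 3.36% had H3K27me3 only. When both were lower (447 regions), the outcomes were nearly even, with both marks in 21.5%, H3K27ac only in 22.6%, H3K27me3 only in 29.1% and neither in 26.8%. When both were upper (212 regions), 85.4% kept both and 0 had neither, which allows a share of up to 1.78% by the Wilson interval. Of the 633 regions with exactly 1 mark in KO, the absent mark had been in the lower score class of the 2 in 474 (74.9%), in the same class in 124 and in the higher in 35.

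The arrangement in WT also went with the outcome. Where H3K27ac lay inside H3K27me3, 113 of 154 regions (73.4%, 65.9 to 79.7) had no KO H3K27ac peak, 41.1 points (33.1 to 48.1) more than the 32.2% of partial overlaps. H3K27me3 was absent from 21 of these 154 (13.6%), and 99 (64.3%) had H3K27me3 only. These regions had a median WT H3K27ac score of 64.0, beside 116 in partial overlaps, and a median H3K27me3 score of 602, beside 154. Among regions with a lower H3K27ac score, H3K27ac was absent from 100 of 130 nested and 298 of 545 partial regions, a difference of 22.2 points (13.3 to 29.9). Among those with an upper score it was absent from 13 of 24 nested and 42 of 510 partial regions, a difference of 45.9 points (26.6 to 64.0). Scores were not matched within the upper ones: the largest H3K27ac score was 286 in nested and 1589 in partial regions. In the 29 regions with H3K27me3 inside H3K27ac, H3K27me3 was absent from 12 and H3K27ac from 5.

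Side-by-side regions differed less from the rest. H3K27me3 was absent from 44 of 104 (42.3%, 33.3 to 51.9), beside 381 of 1239 regions with shared bases (30.8%, 28.2 to 33.4), a difference of -11.6 points (-21.5 to -2.13) for shared bases minus side by side. The regions with shared bases include the 154 with H3K27ac inside H3K27me3, of which 13.6% had no KO H3K27me3 peak. In partial overlaps alone the share was 32.9% (347 of 1055, 30.1 to 35.8), nearer to that of side-by-side regions. The median WT H3K27me3 score was 128 in side-by-side regions and 154 in partial overlaps. Among lower H3K27me3 scores, H3K27me3 was absent from 41 of 73 side-by-side and 340 of 687 partial regions. Among upper scores it was absent from 3 of 31 and 7 of 368. H3K27ac was absent from 31.7% of side-by-side regions and 37.0% of those with shared bases, and the interval of that difference included 0. Where the marks reached to opposite ends, H3K27ac was absent from 31.4% and H3K27me3 from 36.8% of 994 regions. Where H3K27me3 reached farther on both sides, the shares were 57.0% and 12.03% of 291. The reach of H3K27me3 beyond the H3K4me3 peak gave the same order. H3K27me3 was absent from 8.99% of regions that it overran at both edges, 30.1% of those overrun at 1 edge and 55.2% of those that held it inside, and the median WT H3K27me3 scores of these sets were 694, 166 and 87.9.

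**Figure D3:**
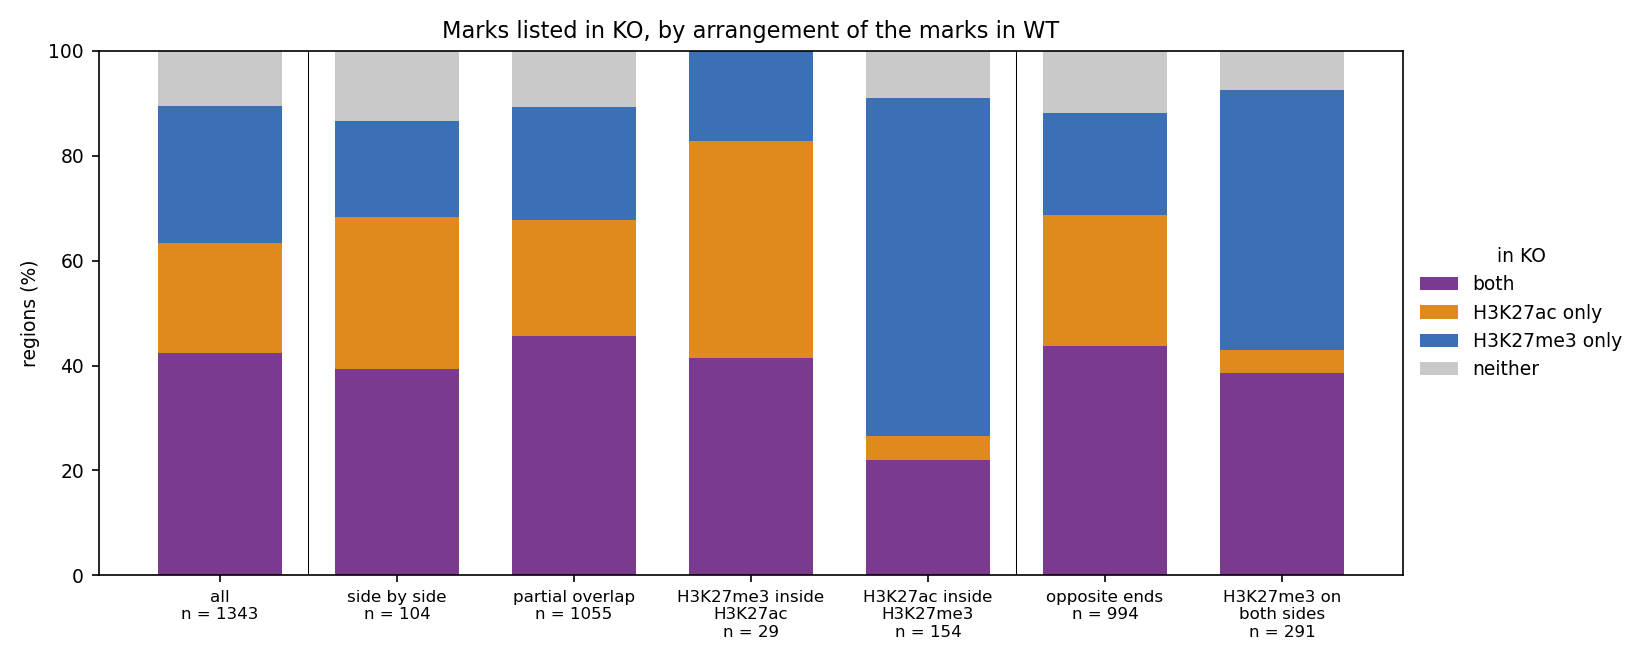
Marks listed in KO (stacked bars, % of regions) for all 1343 regions, for 4 arrangements by overlap and for 2 arrangements by order of the marks in WT, with the number of regions under each bar. H3K27me3 only takes 64.3% where H3K27ac lay inside H3K27me3 and 21.5% where the overlap was partial.

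Base by base, the state with both marks was the least often kept, and it needs both marks to stay listed. The regions held 1205 kb of such bases. In the KO lists 30.5% of them still had both marks, 23.4% had H3K27ac alone, 29.6% had H3K27me3 alone and 16.5% had neither. In the reverse direction, 60.6% of the 605 kb with both marks in the 770 KO regions had both in WT. That state was the least often kept there too, beside 75.5% for H3K27ac alone and 87.4% for H3K27me3 alone. The regions were chosen for their marks in WT, so the forward shares are not by themselves a measure of loss. Of the 1696 kb with H3K27ac alone in WT, 70.6% had H3K27ac alone in KO and 1.56% had H3K27me3 alone. Of the 1731 kb with H3K27me3 alone in WT, 72.6% had H3K27me3 alone in KO and 2.31% had H3K27ac alone. Summed over the regions, again as chosen in WT, KO peaks covered 72.1% of the WT length for H3K27ac and 73.5% for H3K27me3. They covered 39.4% for both together, while H3K4me3 covered 95.5%. The corresponding lengths were 90.3% for H3K27ac in peaks with H3K27ac alone and 91.9% for H3K27me3 in peaks with H3K27me3 alone.

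**Figure D4:**
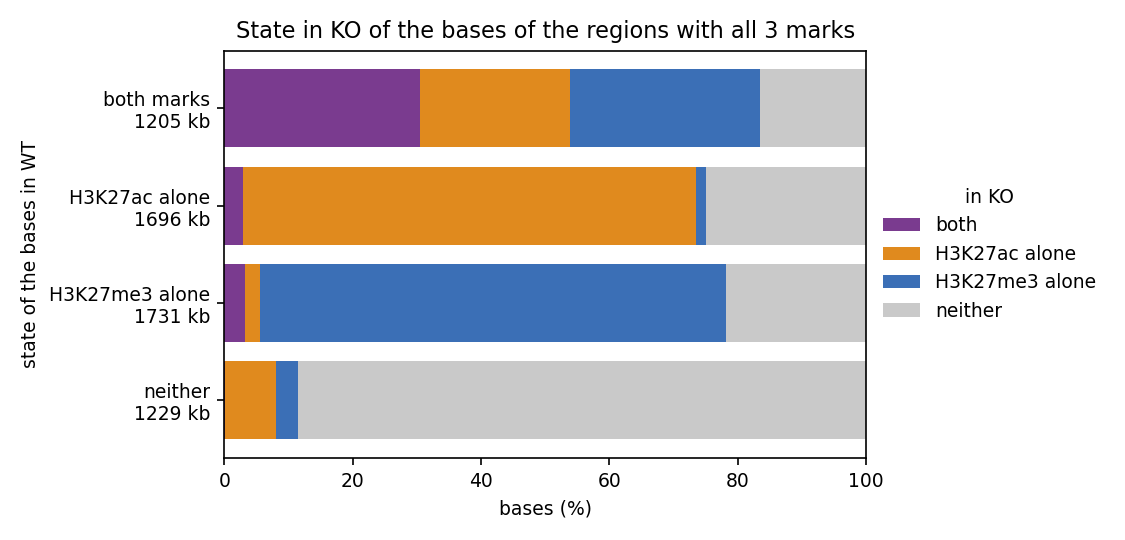
State in KO (stacked bars, % of bases) of the bases of the 1343 regions, by their state in WT (rows, with the length in kb). Of the bases with both marks in WT, 30.5% have both in KO, while 70.6% and 72.6% of the bases with H3K27ac alone and H3K27me3 alone keep that state. The regions were chosen in WT. In the reverse direction, not drawn, 60.6% of the bases with both marks in the 770 KO regions had both in WT.

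When 1 mark was absent in KO, most of the bases it had held alone in WT were left with neither. In the 350 regions with H3K27me3 only in KO, 89.7% of the bases with H3K27ac alone in WT had neither mark in KO and 10.3% had H3K27me3. In the 283 regions with H3K27ac only, 85.4% of the bases with H3K27me3 alone in WT had neither and 14.6% had H3K27ac. The length of the remaining mark stayed close to its WT length, at 93.9% for H3K27me3 and 102% for H3K27ac. These lengths were much the same in the 568 regions with both marks in KO, at 94.0% and 101%. The 568 regions with both marks in KO mostly kept their overlap. Shared bases were present in KO in 523 of them (92.1%), with a median of 769.5 bp beside 854.5 bp in WT. Of the 41 side-by-side regions among them, 17 had shared bases in KO.

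Single regions show each outcome, named by rules on score or length. The longest shared stretch, 3442 bp at chr5:172752005-172757983, was a WT H3K27ac peak lying inside an H3K27me3 peak. In KO it had no H3K27ac peak, with the nearest 31.5 kb away, while H3K27me3 covered 4876 bp of the region beside 4782 bp in WT. The next longest, 3376 bp at chr12:4376950-4388456, kept 3153 bp of shared bases in KO. At chr4:79471702-79474816 H3K27me3 covered the whole 3115 bp H3K4me3 peak in both genotypes and H3K27ac 2491 bp in WT and 2588 bp in KO.

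Among regions with H3K27me3 only in KO, the highest WT H3K27ac score, 535, was at chr10:99256252-99260560. H3K27ac covered 2328 bp there in WT, and the nearest KO peak was 14.1 kb away, while H3K27me3 covered 1951 bp in WT and 1892 bp in KO. At chr20:39655988-39660984 the WT H3K27ac peak of score 271 covered 1763 bp and the nearest KO peak was 104 kb away. H3K27me3 there covered 2428 bp in WT and 2726 bp in KO.

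The regions with H3K27ac only in KO and the highest WT H3K27me3 scores were mostly of another kind. In 4 of the 5 named by that rule, WT H3K27me3 entered the H3K4me3 peak by 114 to 844 bp from a longer domain outside, and the KO H3K27me3 peak ended 0.128 to 1.42 kb short of it. An example is chr10:124912919-124919302, where 264 bp of a domain entered in WT and the KO peak lay 0.128 kb away. The other was chr5:74346375-74351454, where WT H3K27me3 of score 958 covered 4678 bp, 2980 of them shared with H3K27ac. Its nearest KO H3K27me3 peak was 407 kb away, and H3K27ac covered 3375 bp in WT and 3352 bp in KO.

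Among regions with neither mark in KO, chr2:166648209-166652108 had 2158 bp of H3K27ac inside H3K27me3 in WT, and its nearest KO peaks were 28.0 kb and 951 kb away. Its H3K4me3 peak stayed listed. The widest gap between the marks was 8712 bp, at chr11:57404185-57418418, where H3K27ac covered 4354 bp at one end in WT and 4904 bp in KO, and H3K27me3 1168 bp and 1248 bp at the other. The 5 regions without H3K4me3 in KO included chr2:97546534-97548472, where both other marks were absent too.

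**Figure D5:**
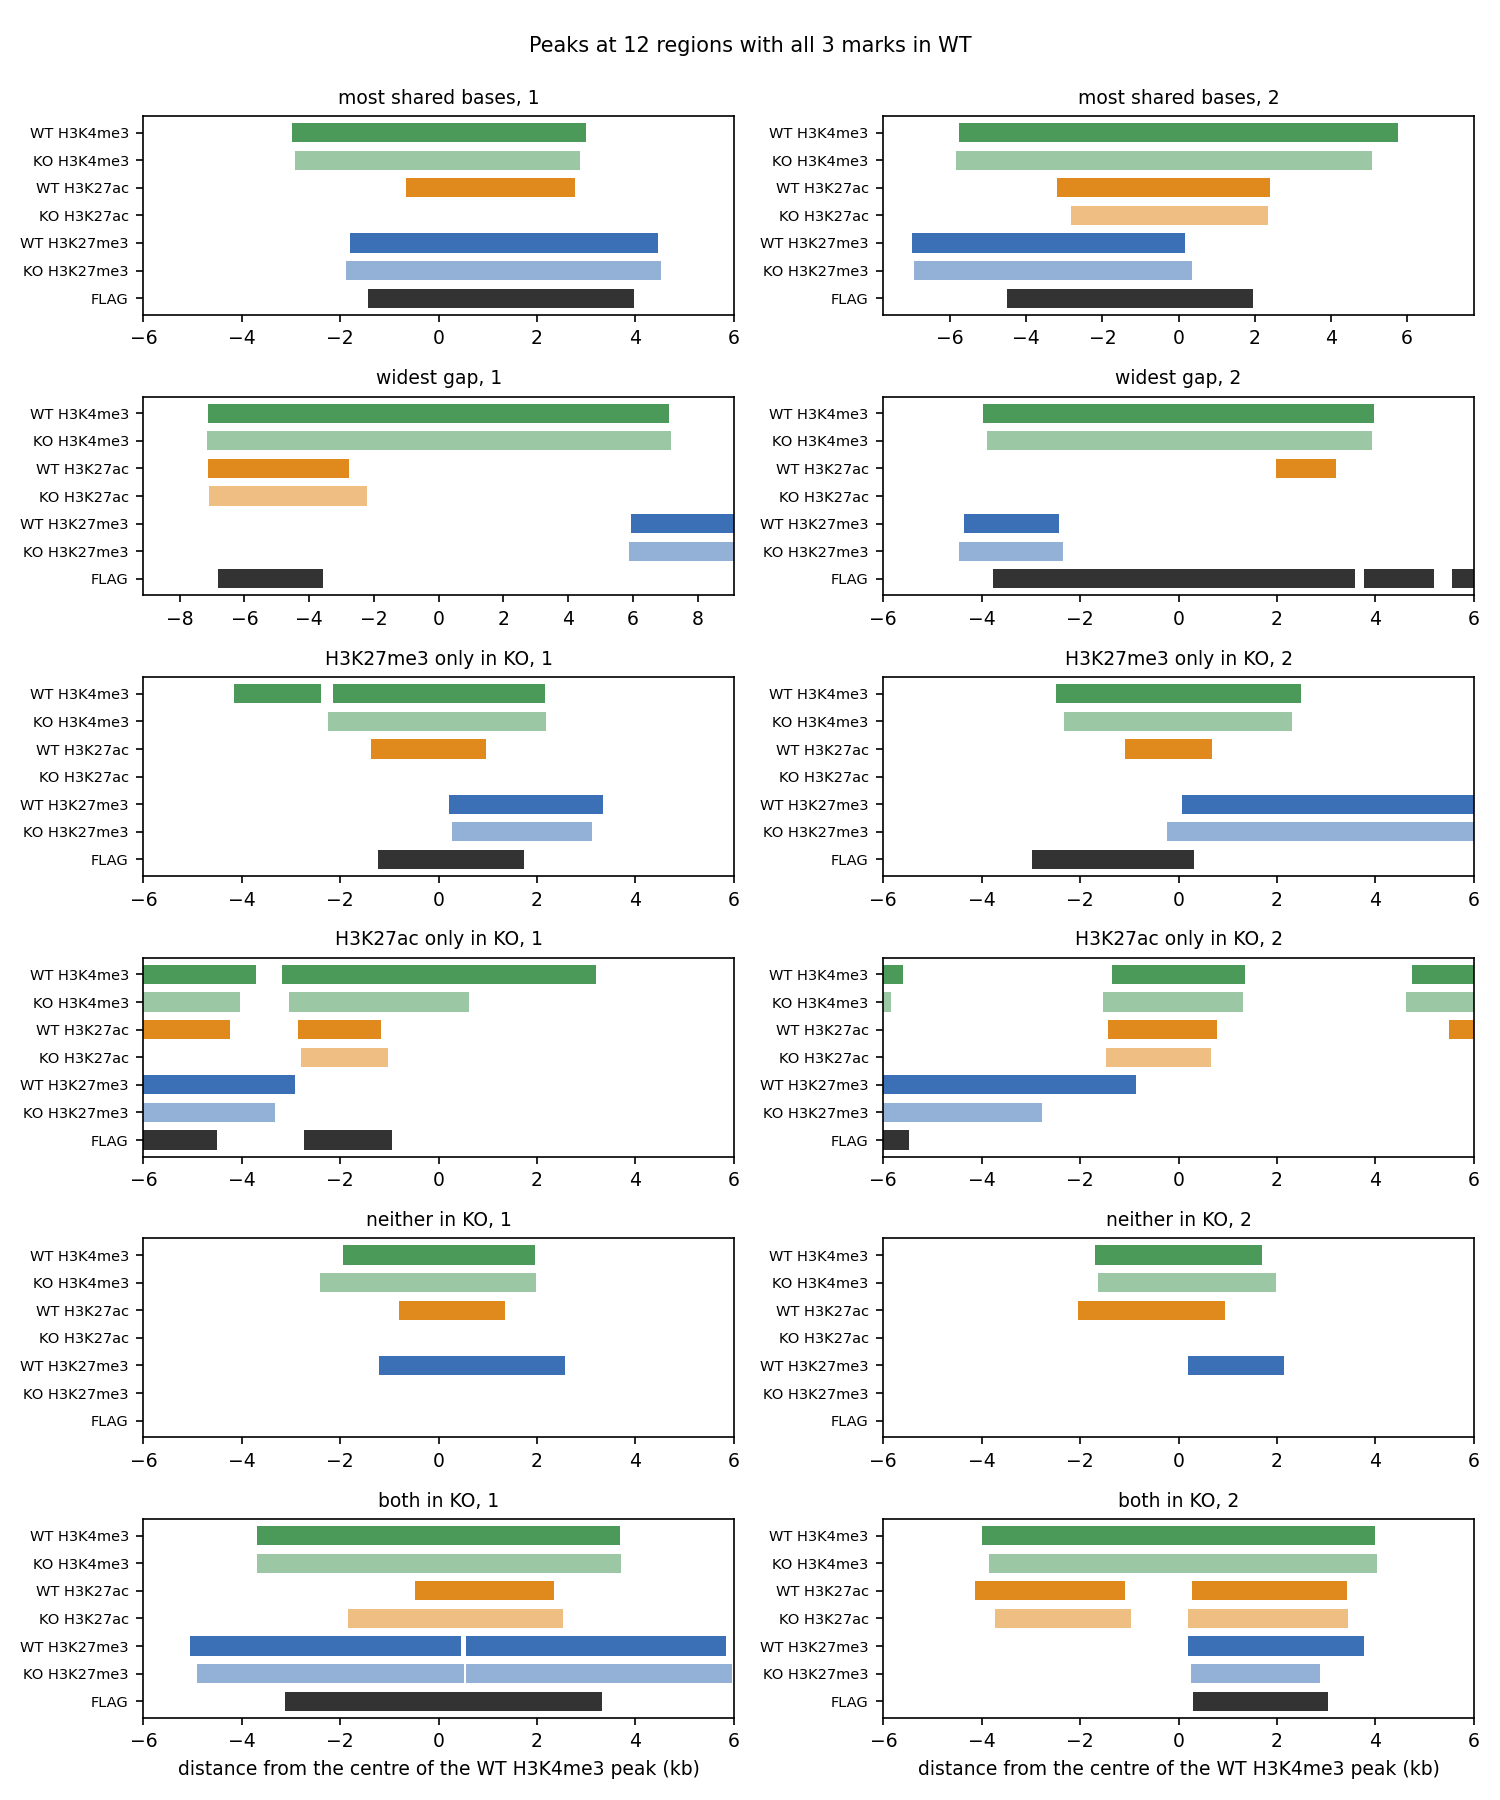
Peaks of WT and KO (rows; paler bars are KO) and of FLAG-tagged ZNF263 at 12 named regions, the first 2 of each of 6 naming rules that were not drawn before, against distance from the centre of the WT H3K4me3 peak (horizontal axis, kb). Bars that reach the frame continue beyond it. In the region with the most shared bases the 3442 bp H3K27ac peak of WT has no KO counterpart, and in the first region with H3K27ac only in KO the H3K27me3 domain ends 0.128 kb short of the H3K4me3 peak.

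FLAG peaks mark where tagged ZNF263 was found in the KO clone that expressed it. Of the 1343 regions, 976 (72.7%, 70.2 to 74.99) overlapped a FLAG peak, where the background over all WT H3K4me3 peaks was 39.3%. The share was 33.4% in peaks with H3K27ac alone and 59.8% in peaks with H3K27me3 alone. The regions were also wider, and FLAG overlap went with width. Within 4 classes of H3K4me3 width the regions had a FLAG peak in 15 of 50 of the narrowest, then in 48.9%, 63.7% and 83.4% up to the widest. The shares were 5.42%, 17.6%, 35.5% and 55.1% in peaks with H3K27ac alone, and 35.5%, 57.2%, 71.6% and 83.9% in peaks with H3K27me3 alone. The regions were thus above peaks with H3K27ac alone in each class, and above peaks with H3K27me3 alone only when width was left out.

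The FLAG share was near that of all regions in most arrangements and lower in one. It was 44.8% (13 of 29, 28.4 to 62.5) where H3K27me3 lay inside H3K27ac, beside 73.2% (70.4 to 75.8) in partial overlaps and 74.7% (67.3 to 80.9) where H3K27ac lay inside H3K27me3. It was 72.6% where the marks shared bases and 73.1% where they lay side by side, and the interval of the difference ran from -8.44 to 9.11 points. By outcome it was 73.6% with both marks in KO, 76.3% with H3K27me3 only, 69.3% with H3K27ac only and 66.9% with neither. H3K27ac was absent in KO from 37.1% of regions with FLAG and 35.4% of those without, a difference of 1.67 points (-4.17 to 7.30). H3K27me3 was absent from 29.8% of regions with FLAG and 36.5% without, a difference of -6.70 points (-12.5 to -1.10). Weighted over the 4 score classes that difference was -0.676 points. For H3K27ac the corresponding value was 5.80 points.

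Inside the regions, FLAG peaks covered bases with H3K27ac more often than bases without it, though not only those. In the 976 regions with FLAG, 91.8% of the bases with both marks in WT lay under a FLAG peak. The share was 77.3% for H3K27ac alone, 54.5% for H3K27me3 alone and 21.7% for neither. Of 1024 FLAG midpoints in the regions, 427 (41.7%) fell on bases with both marks, which made up 19.9% of the length. Midpoints were central, with 892 of them (87.1%) in the middle 50% of the H3K4me3 peak. In that middle part, 43.8% fell on bases with both marks and 43.4% on bases with H3K27ac alone, which made up 28.8% and 37.4% of its length. Bases with H3K27me3 alone made up 23.2% of it and held 10.3% of the midpoints.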

How the data were processed

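Peak lists of H1 cells were analysed for H3K4me3, H3K27ac and H3K27me3 in WT and in a ZNF263 KO clone, with 1 FLAG list. Per the labels' protocols, formaldehyde-fixed chromatin was sonicated and libraries were not size-selected. Bowtie2, Picard and hg19 are named per the submitters' processing notes, without version, and peak names in the files begin with MACS. Sources used here give neither the caller's version nor inputs nor pooling. Each deposited list holds positions, names and a score from the authors' peak calling, of unstated scale, used within a list only. The lowest score was 40 in H3K27ac and H3K27me3 lists and 50 in the other WT list and the FLAG list. The names of the H3K27ac and H3K27me3 lists carry a p-value setting, and those of the H3K4me3 lists do not. Shares kept in KO are therefore not like for like between H3K4me3 and the other marks. The labels of the endogenous ZNF263 ChIP name the FLAG list, and separate endogenous peaks were not analysed here.

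Groups came from sample titles. Marks were cut to the WT H3K4me3 peak, overlap was at least 1 bp, and base states were counted with numpy 2.4.6 and pandas 2.3.3 under python 3.11.15. Intervals came from scipy 1.17.1 and plots from matplotlib 3.10.9. Score classes were cut at the quartiles of each WT list, and width classes at those of the H3K4me3 peaks with H3K27me3. Where several peaks of a mark met a region, the highest score was taken. Overlap was tested against a direct count in 500 peaks and geometry on simulated data of 1000 regions, with 0 wrong. Regions were named by rank of shared bases, gap or WT score, with 3 to 5 per rule. The members and lists were chosen with earlier results of these data known. Alternatives were another overlap, distance, score limit, list length, merging and autosomes alone. Weighting over score or width classes was chosen after the data were seen.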

Additional observations from a re-analysis of the deposited data

How the results depend on the processing

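Of 76 alternatives for 17 results, 48 left the value within its 95% interval (for a count, within 1.5 times), 27 moved it and 1 reversed it. The cause was not tested. The regions whose marks shared bases were 94.2% with an overlap of 50% of the smaller peak and 87.9% in the upper 50% of each list. They were 86.4% with H3K4me3 peaks merged over 3 kb and 86.8% when 200 bp had to be shared. Trimming peaks by 100 bp at both ends is nearly the same condition as the last and also gave 86.8%. The upper 50% of each list left 199 regions; H3K4me3 was listed in KO in 98.5%, H3K27ac only in 18.6%, neither mark in 12.6% and FLAG in 75.9%, and 70.0% of KO regions had both marks in WT. With an overlap of 50%, H3K27me3 was listed in KO in 63.0%, both marks in 37.5%, H3K27ac only in 23.6%, neither in 13.4% and FLAG in 75.9%. With lists of equal length, H3K27me3 was listed in 76.2%, both in 46.5%, H3K27ac only in 15.6%, H3K27me3 only in 29.8% and neither in 8.18%. Counting KO peaks up to 1 kb away, or autosomes alone, moved no value.

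Weighted over score classes, the excess without the mark in KO was 13.8 points for H3K27ac and 6.17 points for H3K27me3, and over width classes 24.4 and 23.4 points. The FLAG excess over peaks with H3K27ac alone was 28.5 points over width classes. That over peaks with H3K27me3 alone went from 12.9 to -3.46 points, and the FLAG difference in H3K27me3 absence from -6.70 to -0.676 points over score classes. No paired analysis was possible because each arm held 1 library. Depth is unknown, and a weak peak may be missed in either genotype.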

Other observations

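The outcome varied between chromosomes. Among the 19 autosomes with at least 30 regions, both marks stayed listed in KO in 27.8% of regions on chromosome 11 (20 of 72, 18.8 to 39.0) and in 57.4% on chromosome 4 (35 of 61, 44.9 to 69.0). H3K27ac was absent from 39 of the 72 regions on chromosome 11 and from 14 of the 61 on chromosome 4. H3K27ac was absent more often than H3K27me3 on 15 of 22 autosomes and less often on 7. These extremes were picked after their values were seen, and the difference between chromosomes was not tested.

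Few WT H3K4me3 peaks with H3K27me3 alone or H3K27ac alone had both marks listed in KO. These are changes of listing, and a weak peak may be missed in either genotype. Of the 8240 WT H3K4me3 peaks with H3K27me3 alone, 121 (1.47%) had both marks in KO, and of the 10860 with H3K27ac alone, 68 (0.626%) had both. Listing of the other mark instead was rarer: 45 peaks with H3K27me3 alone had H3K27ac only in KO, and 20 with H3K27ac alone had H3K27me3 only. Of the 770 KO regions with all 3 marks, 120 had H3K27me3 only in WT, 71 had H3K27ac only and 12 had neither.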
